A study of Homo sapiens with 18 samples.

Results

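Hep3B cells, an established human hepatoma line, were given free fatty acids (FFA) together with fucoxanthin (FUCO), a carotenoid of brown algae, at 1 µM, and were compared with untreated cells. The comparison used 6 of the 18 RNA-seq libraries of the series, 3 labelled FUCO-1 (FFA with 1 µM FUCO) and 3 labelled Con (neither FFA nor FUCO), chosen by their titles. The 3 Model libraries (FFA alone) were used beside them to set each difference beside that of FFA alone. It asked which fatty acid changes remained when FUCO was given and which genes lay below the untreated level. All groups were the same tumour line with no separate donors, so p-values measure the spread between libraries of that line. The study calls the 3 libraries of a condition biological replicates. How the cultures were kept separate was not given, so part of the spread may be technical. The FFA concentration and the treatment times of these libraries were not given in the sources used here. Whether Con cells received the carrier of FFA or of FUCO was not given either. An effect of a carrier therefore cannot be told apart from one of the compound. No library had FUCO without FFA, so an effect of FUCO alone cannot be told apart from one that needs FFA.

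Fatty acids entering a hepatocyte are activated, oxidised or stored as triglyceride in lipid droplets, and they act as ligands of the PPAR nuclear receptors that switch on oxidation genes. Unsaturated fatty acids and sterols hold back SREBP factors, which drive the genes of fatty acid and cholesterol synthesis. Immediate early genes such as the EGR, FOS, JUN and NR4A families are transcription factors that cells induce within minutes of growth factor or stress signals, largely through MAP kinases, and dual specificity phosphatases then shut those kinases off. ID proteins, targets of BMP receptors and SMAD factors, block basic helix-loop-helix transcription factors.

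Library totals ran from 17634513 to 20203213 counts in these 3 groups, and 14557 genes were tested. Levels are CPM, that is counts divided by the library size after TMM scaling, and log2 fold changes come from edgeR's quasi-likelihood fit with Benjamini-Hochberg adjusted p over all tested genes. Genes were called differentially expressed (DEGs) where the log2 fold change was over 1 in size and the adjusted p under 0.05. Differences given below with an SE or an adjusted p, or called lower or higher at a value without a unit, are log2 fold changes of FUCO-1 against Con unless another comparison is named. Here SE is the size of the log2 fold change divided by the square root of its F statistic, not a separately estimated error. Of 20 hepatocyte markers 19 were tested, and their summed level was 80120 to 88710 CPM in Con, 63020 to 64210 in Model and 57210 to 61210 in FUCO-1. ALB, AFP and HNF4A were present in every group, while ACTA2, COL3A1, PTPRC, CD163, CDH5, KDR and VWF were at 0 counts in Con and FUCO-1. Other markers of those lists were detected: LUM and PDGFRB averaged 13.6 and 18.3 CPM in Con, LYZ 15.5 and CD14 3.30 CPM in FUCO-1, and COL1A1 and PECAM1 reached 30 and 27 counts. The summed level of the 4 tested of 7 fibroblast markers was 28.0 to 36.7 CPM in Con and 17.1 to 19.9 in FUCO-1. That of the 2 tested of 7 leukocyte markers, LYZ and CD14, was 5.14 to 7.17 and 15.4 to 22.0. The 1 tested of 4 endothelial markers, PECAM1, had 0.162 to 0.751 and 0.800 to 1.34. The 3 tested of 4 cholangiocyte markers summed to 801 to 880 and 782 to 874. Members that the filter removed are not in these sums. The part of these levels in the results was not tested. Con replicate 1 stood apart from Con replicates 2 and 3: the chi-square per degree of freedom of its counts was 15.1 and 12.8 against them, and 2.26 between the other two. FUCO-1 replicate 3 differed from the others of its group by 9.71 and 10.7, beside 4.39 between those. On the first principal component of the 9 libraries the other Con libraries lay at -33.3 and -30.6, the Model libraries at 10.1 to 12.3 and Con replicate 1 between them at -16.3. Values without Con replicate 1 are given beside several genes and counts whose call or size changed without it.

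FUCO-1 and Con differed in 340 DEGs (2.34% of tested genes), 166 higher (1.14%) and 174 lower (1.20%) in FUCO-1. FFA alone gave 284 DEGs against Con (1.95%), 179 higher (1.23%) and 105 lower (0.721%). FUCO-1 and Model differed in 72 DEGs (0.495%), 6 higher (0.0412%) and 66 lower (0.453%) in FUCO-1. Of the 284 fatty acid DEGs, 167 remained, meaning that they were also DEGs in the same direction in FUCO-1 against Con. These comprised 102 genes higher and 65 lower than Con. The comparisons share the Con libraries, so the overlap is a description. In the direct test of FUCO-1 against Model, 261 of the 284 were called in neither direction, 19 were called back towards Con and 4 further away from it (MT2A, HSPA6, MIR3142HG and THBS4). The 284 were picked with the same Model libraries, so these counts are a description too. Over all tested genes 3.21% were called in that test, 0.893% higher and 2.32% lower. Of the 117 that did not remain, 31 still differed from Con in the same direction at a smaller fold change, 73 had the same direction without a call and 13 had the opposite direction. The number remaining was 243 without Con replicate 1, and 140 of the 167 were among them.

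**Figure D1:**
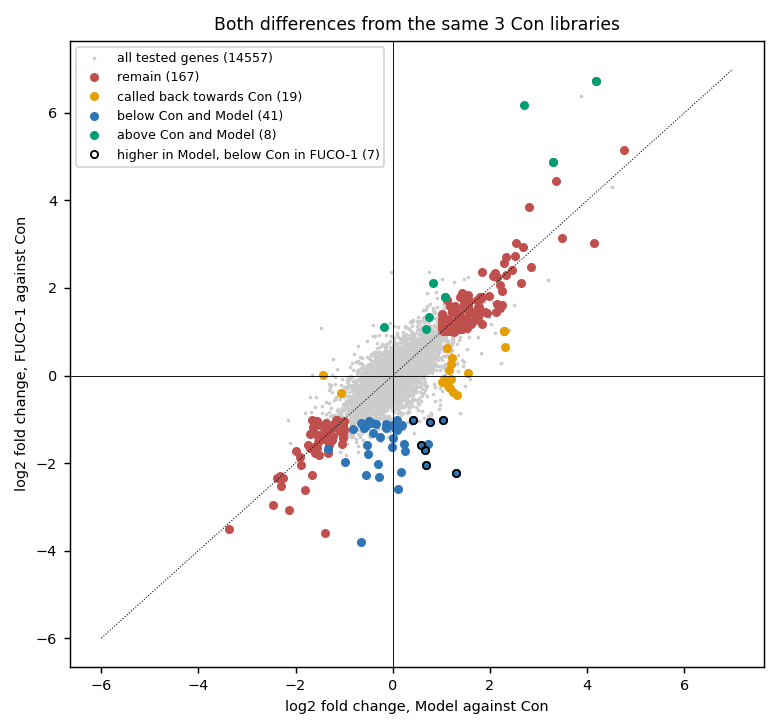
Log2 fold change of each of the 14557 tested genes in Model against Con (x axis) and FUCO-1 against Con (y axis), with genes that remain (167), were called back towards Con (19), lay below Con and Model (41) or above both (8), or were higher in Model and below Con in FUCO-1 (7, outlined) marked. The dotted line marks equal differences; both axes use the same Con libraries, so position along the line is no independent evidence. Fitted values of genes nearly absent from Con, such as MT2A, depend on the prior count.

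Most tested genes of sterol and fatty acid synthesis were lower than Con with FUCO, as with FFA alone. Of 23 tested cholesterol synthesis genes 20 were lower in FUCO-1 than Con at adjusted p under 0.05 and none was higher, beside 10.1% lower and 8.22% higher over all tested genes. In all, 18.3% of tested genes were called, and the count of every list below is to be read against these shares. The median log2 fold change of the cholesterol genes was -0.75, against 0.00 for all genes. With FFA alone 21 were lower, beside 9.12% lower and 8.43% higher over all tested genes, and 2 were lower in FUCO-1 than Model. Of 16 fatty acid synthesis genes 12 were lower than Con and 1 higher, with a median of -0.58. With FFA alone 11 were lower, and 2 (ELOVL6 and FADS2) were lower in FUCO-1 than Model. ELOVL6 was lower than Con with FUCO (-0.59) and not called with FFA alone (-0.13, adjusted p = 0.284).

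ACSS2, which makes acetyl-CoA from acetate, measured 189, 439.9 and 397 CPM in the Con libraries, 67.1, 71.5 and 66.6 in the Model libraries and 64.2, 64.5 and 79.7 in the FUCO-1 libraries. All FUCO-1 libraries lay under all Con libraries, as FUCO-1 and Con did not overlap in 30.1% of all tested genes, and they overlapped those of Model, although Con replicate 1 was far under the other Con libraries. The log2 fold change against Con was -2.30 with SE 0.18 and adjusted p = 2.24e-09, and against Model 0.02, adjusted p = 0.973. MVD, the mevalonate pathway decarboxylase, read 489, 549.7 and 566 CPM in Con, 262, 277 and 247 in Model and 224, 212 and 268 in FUCO-1. Its difference from Con was -1.19 with SE 0.11 and adjusted p = 3.49e-08 on the log2 scale. STARD4, a cytosolic sterol carrier, held 183, 244 and 229 CPM in Con, 108, 112 and 103 in Model and 98, 88.1 and 78.4 in FUCO-1, again with no overlap between FUCO-1 and Con (-1.31 with SE 0.10 and adjusted p = 1.7e-09). ACLY, which supplies cytosolic acetyl-CoA, and LPIN1, a phosphatidate phosphatase, remained lower, with log2 fold changes of -1.08 and -1.39. GPAM, the first acyltransferase of glycerolipid synthesis, was a DEG in FUCO-1 (-1.40 with SE 0.17 and adjusted p = 2.36e-06) with a smaller log2 fold change in Model (-0.86, adjusted p = 0.000709), and FUCO-1 against Model was not called (-0.54, adjusted p = 0.0933). INSIG1, the sterol sensor that holds SREBP in the endoplasmic reticulum, and SC5D, a late sterol enzyme, had log2 fold changes of -1.04 and -1.06. FASN, the fatty acid synthase, SCD, the stearoyl-CoA desaturase, ACACA, the acetyl-CoA carboxylase, and SREBF1, which encodes SREBP-1, were lower than Con, with log2 fold changes of -0.74, -0.96, -0.46 and -0.44, all with adjusted p under 0.05. SCD passed the fold threshold without Con replicate 1 (-1.05).

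Of 21 tested PPAR and fatty acid oxidation genes 9 were higher than Con and 2 lower, with a median log2 fold change of 0.30, and none differed between FUCO-1 and Model. CREB3L3, a liver transcription factor of fasting lipid metabolism, measured 29.6, 17.6 and 18.3 CPM in Con, 80.2, 65.4 and 82.6 in Model and 76.3, 62.7 and 87.3 in FUCO-1. FUCO-1 and Con did not overlap (1.79 with SE 0.17 and adjusted p = 3.22e-08), and FUCO-1 against Model was not called (-0.01, adjusted p = 0.983). ANGPTL4, an inhibitor of lipoprotein lipase, remained higher as well (1.45 with SE 0.30 and adjusted p = 0.00122). PDK4, which restrains pyruvate oxidation, was higher by 0.99 with SE 0.13 and adjusted p = 4.6e-06, just under the fold threshold. CPT1A, the carnitine acyltransferase that admits fatty acids to mitochondria, was higher by 0.58 with SE 0.07 and adjusted p = 3.39e-06. PPARA itself did not pass the test (-0.02 with SE 0.08 and adjusted p = 0.881).

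Among 16 lipid droplet genes 2 were higher and 1 lower than Con, close to the 18.3% called over all tested genes, and none differed from Model. PLIN2, which coats lipid droplets, held 409, 398 and 386 CPM in the Con libraries, 817, 893 and 829.5 in the Model libraries and 687, 746 and 710.1 in the FUCO-1 libraries. Every FUCO-1 library lay above every Con library and under every Model library. Against Con the log2 fold change was 0.85 with SE 0.08 and adjusted p = 3.99e-08, and against Model it was -0.25, adjusted p = 0.0909, which did not pass. HSD17B11, another droplet protein, was lower than Con (-0.31 with SE 0.09 and adjusted p = 0.0131), a call lost in 3 of 16 alternatives. Of 12 tested fatty acid uptake and activation genes 2 were higher (4 without Con replicate 1) and 4 lower, with a median of 0.01. In FUCO-1 against Model 2 were lower, ACSL1 (-0.35, adjusted p = 0.0419) and VLDLR (-0.44, adjusted p = 0.0397). ACSL3, an acyl-CoA synthetase of nascent droplets, was lower (-1.04 with SE 0.10 and adjusted p = 7.48e-08) and FABP5, a fatty acid binding protein, higher (0.83 with SE 0.13 and adjusted p = 5.05e-05). FABP1, the liver fatty acid binding protein, was lower, at -0.46 with SE 0.11 and adjusted p = 0.00371, and its log2 fold change was -0.28, adjusted p = 0.0346, without Con replicate 1. VLDLR, a lipoprotein receptor, was lower than Con (-0.71 with SE 0.12 and adjusted p = 9.67e-05).

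CD36, a fatty acid translocase at the plasma membrane, was low in all groups, with raw counts of 51, 16 and 12 in Con, 33, 19 and 31 in Model and 43, 26 and 36 in FUCO-1. The groups overlapped and no comparison passed (0.31 with SE 0.36 and adjusted p = 0.594 for FUCO-1 against Con, 0.30, adjusted p = 0.729 against Model). Con replicate 1 held the highest count of the 9 libraries. Without it, CD36 was higher in FUCO-1 than Con, with a log2 fold change of 1.23 and adjusted p = 0.00816. ACSL1 and DGAT2, the enzymes that activate fatty acids and complete triglyceride synthesis, did not pass against Con (-0.14 with SE 0.10 and adjusted p = 0.331 and 0.27 with SE 0.16 and adjusted p = 0.257). Of 8 tested LXR and cholesterol efflux genes 3 were lower and none higher (MYLIP -0.70, ABCA1 -0.40 and APOC1 -0.35 on the log2 scale). The number higher was 2 without Con replicate 1. The call of MYLIP was lost in 2 of 16 alternatives.

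**Figure D2:**
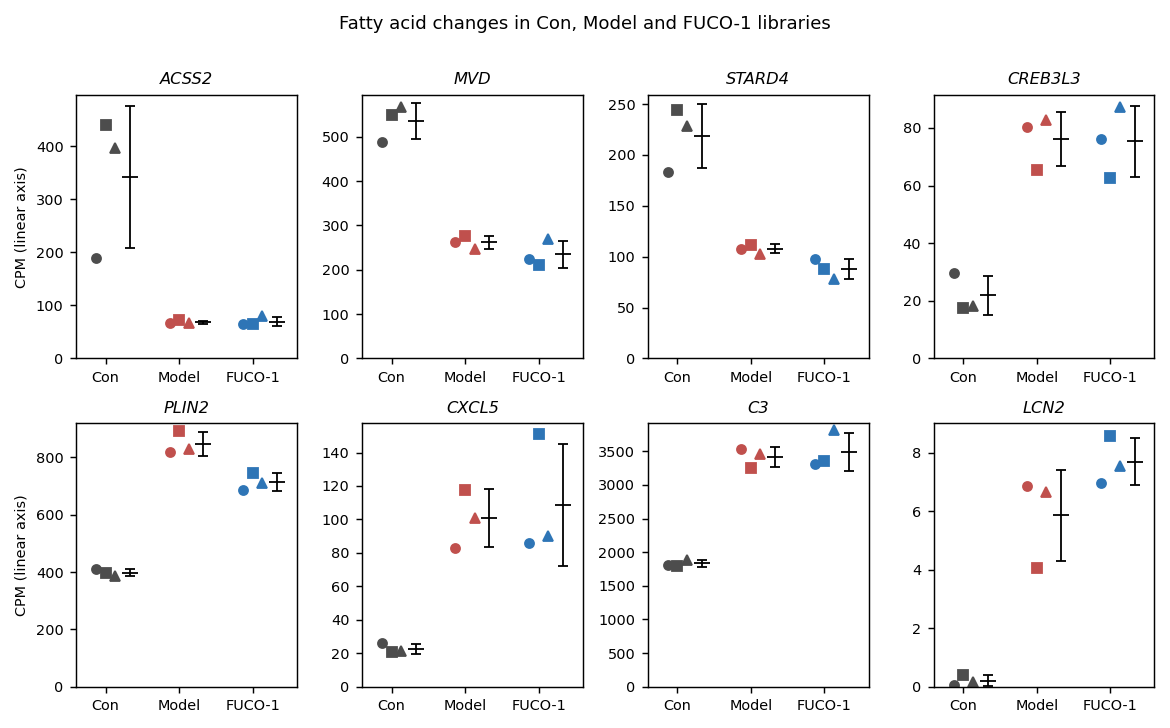
CPM (linear axis from 0) of ACSS2, MVD, STARD4, CREB3L3, PLIN2, CXCL5, C3 and LCN2 in each Con, Model and FUCO-1 library. Circles, squares and triangles are replicates 1, 2 and 3 and bars give the mean ± SD (n = 3). In each panel the FUCO-1 libraries lie apart from Con on the side of Model, and for PLIN2 they lie between the groups. These genes were picked with their differences from Con known, so the separation is no further result.

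Most tested inflammatory genes were higher than Con with FUCO, as with FFA alone. Of 19 tested members of an inflammatory and NF-kB list, 12 were higher than Con and 1 lower, with 8 DEGs higher and a median log2 fold change of 0.66. With FFA alone 14 were higher and the median was 1.22. CXCL8, CXCL2 and LIF were lower in FUCO-1 than Model, and no member was higher. CXCL5, a neutrophil chemokine, measured 26.1, 20.6 and 21.3 CPM in the Con libraries, 83, 118 and 101 in the Model libraries and 85.8, 151 and 89.9 in the FUCO-1 libraries. All FUCO-1 libraries exceeded all Con libraries and overlapped those of Model (2.26 with SE 0.20 and adjusted p = 1.3e-08 against Con). CXCL10, a chemokine induced by interferon, was low, with raw counts of 14, 6 and 7 in Con, 37, 62 and 66 in Model and 73, 95 and 70 in FUCO-1. FUCO-1 lay above Con in every library (3.03 with SE 0.32 and adjusted p = 2.86e-07) and did not differ from Model by the test (0.50, adjusted p = 0.287). BIRC3, an inhibitor of apoptosis induced by NF-kB, read 4.28, 3.46 and 4.81 CPM in Con, 12.9, 16 and 16.1 in Model and 20.5, 30 and 14.6 in FUCO-1 and remained higher (2.37 with SE 0.25 and adjusted p = 2.81e-07). CXCL6 did too (1.93 with SE 0.23 and adjusted p = 2.08e-06). IL1A was the member lower than Con (-0.96 with SE 0.29 and adjusted p = 0.0217), with under 3 CPM in every library, and its call was lost in 3 of 15 alternatives. TNF and CCL2 were at 0 counts in Con and FUCO-1, and IL6 reached at most 1.

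Of 9 tested acute phase genes 2 were higher and 4 lower. LCN2, a siderophore binding protein of inflammation, rose from counts of 1, 7 and 3 in Con to 141, 157 and 132 in FUCO-1 (125, 73 and 123 in Model), with a log2 fold change of 5.15 with SE 0.42 and adjusted p = 5.79e-09. C3, the central complement component, was higher by 0.93 with SE 0.09 and adjusted p = 2.98e-08. The fibrinogen genes FGB and FGG were lower than Con (-1.11 with SE 0.11 and adjusted p = 1.06e-07 and -0.97 with SE 0.12 and adjusted p = 4e-06) and also lower than Model (-0.77, adjusted p = 8.58e-05 and -0.59, adjusted p = 0.00519). FGG had -1.10 against Con without Con replicate 1, past the fold threshold.

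Of 19 tested hepatocyte markers 10 were lower than Con and none higher, with a median of -0.35, and none differed from Model. AFP, the fetal albumin homologue, averaged 6362 ± 311 CPM in Con, 3348 ± 76.3 in Model and 2772 ± 220.3 in FUCO-1 (SD, n = 3) and was a DEG (-1.20 with SE 0.14 and adjusted p = 1.21e-06). AHSG, TF and HPX, a fetal glycoprotein, the iron carrier and the haem carrier, were lower, with log2 fold changes of -0.81, -0.70 and -0.71. In bulk libraries fewer cells of a type and less RNA per cell cannot be told apart. Of 21 cell cycle genes 12 were higher and none lower, with no DEG and a median of 0.25, and none differed from Model. The mitotic kinases AURKA and BUB1 were higher by 0.53 and 0.52 on the log2 scale, CDC20 by 0.50 and cyclin E1 (CCNE1) by 0.50.

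Of 19 integrated stress response genes 14 were lower than Con and none higher (median -0.43), 10 were lower with FFA alone, and in FUCO-1 against Model 4 were lower and 1 higher. SESN2, a stress-induced regulator of mTORC1, read 56.4, 42.6 and 49.6 CPM in Con, 40.6, 38.7 and 38.8 in Model and 26.8, 20.6 and 28.4 in FUCO-1 and was lower than Con (-0.97 with SE 0.12 and adjusted p = 1.59e-06) and than Model (-0.64, adjusted p = 0.00146). TRIB3, a pseudokinase induced by ATF4, was lower, at -0.96 with SE 0.08 and adjusted p = 1.3e-08, INHBE, a hepatic activin subunit, at -0.62, and MTHFD2, a mitochondrial folate enzyme, at -0.62 on the log2 scale. Of 3 tested cholangiocyte markers none was called (EPCAM 0.01 with SE 0.07 and adjusted p = 0.971). Among 4 tested fibroblast markers LUM (-1.82) and PDGFRB (-0.52) were lower. LYZ was the called one of 2 leukocyte markers (2.29), and PECAM1, at no more than 27 counts, was the 1 tested endothelial marker (1.57 with SE 0.44 and adjusted p = 0.0141); it was lost in 3 of 15 alternatives and had 2.63 without Con replicate 1.

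The largest differences by the rule for named genes were also fatty acid changes with a single exception. The 8 largest rises were MT2A, LCN2, MTNR1A (a melatonin receptor), CXCL10, GPX2 (a glutathione peroxidase), EHF (an epithelial ETS factor), BIRC3 and LYZ, with log2 fold changes from 2.29 to 5.15 in the 7 other than MT2A, which was nearly absent from Con. All 8 were among the remaining DEGs. The 8 largest falls included RNF223, PLA2G3, CYP3A7, EID3, SCN2B, LBHD1 and ACSS2 and ran from -3.50 to -2.30, and 7 of them remained from FFA, EID3 being the exception. CYP3A7, the fetal cytochrome P450 of the liver, measured 11, 22.7 and 18.6 CPM in Con, 3.24, 2.95 and 3.25 in Model and 2.28, 2.19 and 2.23 in FUCO-1 (-2.96 with SE 0.28 and adjusted p = 3.54e-08); it has close paralogs, so its counts are uncertain. RNF223 had 0.809 CPM in Con replicate 1 beside 4.78 and 4.87 in the others, and its log2 fold change was -3.96 without that library. LBHD1 shares exons with CSKMT and UQCC3, so its reads may belong to them.

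Of the 19 fatty acid DEGs called back towards Con, 17 were higher and 2 lower in Model. CXCL8, the neutrophil chemokine interleukin 8, measured 70.3, 43.6 and 37.4 CPM in the Con libraries, 212, 303 and 229.7 in the Model libraries and 63.2, 116 and 60.2 in the FUCO-1 libraries. The FUCO-1 libraries lay under all Model libraries and overlapped Con. Against Model the log2 fold change was -1.64, adjusted p = 0.00145, and against Con 0.66 with SE 0.30 and adjusted p = 0.135. Without Con replicate 1 the difference from Con was 0.98, adjusted p = 0.0319. CCN2, a matricellular protein and a target of YAP, read 331, 325 and 330.1 CPM in the Con libraries, 745, 773 and 807 in the Model libraries and 263, 281 and 211 in the FUCO-1 libraries. Its FUCO-1 libraries fell under every Con library as well as every Model library, with log2 fold changes of -0.39 with SE 0.09 and adjusted p = 0.00271 against Con and -1.62, adjusted p = 9.27e-12 against Model. KRT17, a keratin, was at 3.70, 1.37 and 2.00 CPM in Con, 5.43, 7.29 and 4.98 in Model and 1.29, 1.91 and 2.00 in FUCO-1; it was lower than Model (-1.77, adjusted p = 0.000257) and not called against Con (-0.45 with SE 0.32 and adjusted p = 0.354). The long noncoding RNA TMEM9B-AS1 was lower in Model and higher again in FUCO-1 (0.68, adjusted p = 0.0206 against Model, -0.39 with SE 0.15 and adjusted p = 0.0782 against Con, -0.54 and adjusted p = 0.0113 without Con replicate 1), and it shares exons with TMEM9B. Of 19 tested YAP targets 8 were higher than Con with FFA alone, and in FUCO-1 2 were higher (FJX1 and NT5E) and 7 lower, with 5 lower than Model. The number lower than Con was 3 without FUCO-1 replicate 3 and 4 without FUCO-1 replicate 1, and the call of FJX1 was lost in 2 of 16 alternatives. ANKRD1, a muscle ankyrin repeat protein and YAP target, read 29.4, 28 and 26.8 CPM in Con, 41.5, 61.9 and 42.4 in Model and 10.2, 26 and 9.31 in FUCO-1, with FUCO-1 replicate 2 above the other FUCO-1 libraries (-0.89 with SE 0.25 and adjusted p = 0.0145 against Con). Its log2 fold change was -1.53 without that library, and the call was lost in 3 of 16 alternatives, among them leaving out FUCO-1 replicate 1 or replicate 3. F3, tissue factor, was lower than Con (-0.64 with SE 0.18 and adjusted p = 0.0153), with adjusted p = 0.0516 without Con replicate 1, and its call was lost in 4 of 16 alternatives.

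The 174 genes below the untreated level divided by what FFA did alone. In Model 65 were DEGs lower than Con, 46 were lower at a smaller fold change, 56 were not called, 5 were higher at a smaller fold change and 2 were DEGs higher than Con. Of the 56, 21 were lower in FUCO-1 than Model. In all 41 genes lay below both Con and Model, 30 of them as DEGs against Model as well. The same contrasts define this class, so its lack of overlap is no further result. Of the 41, 23 were also DEGs lower than Con at 0.5 µM FUCO and 17 at 2 µM. Those comparisons use the same Con libraries, and their shares over all tested genes are not given here.

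The 7 genes higher than Con with FFA and DEGs lower than Con with FUCO were EGR2, KLF2, ATF3, PLK2, RASD1, CITED2 and NR4A1. They were picked by opposite differences from Con, so their distance between FUCO-1 and Model is no further result. EGR2 (chr10:62811996-62819167), a zinc finger transcription factor, measured 3.93, 2.45 and 2.22 CPM in the Con libraries, 6.74, 5.95 and 8.50 in the Model libraries and 0.693, 0.546 and 0.571 in the FUCO-1 libraries. No FUCO-1 library overlapped either group, and the Model libraries lay above all Con libraries. The log2 fold change was -2.22 with SE 0.31 and adjusted p = 1.4e-05 against Con and -3.53, adjusted p = 2.25e-09 against Model, while FFA alone gave 1.30, adjusted p = 0.000101. KLF2, a Krüppel-like factor, read 40.9, 21 and 23.1 CPM in Con, 44.3, 49.7 and 43.2 in Model and 5.99, 6.83 and 7.83 in FUCO-1. Its Con replicate 1 was near the Model libraries, and FUCO-1 lay under all Con libraries (-2.04 with SE 0.20 and adjusted p = 5.38e-08). ATF3, a stress-induced bZIP factor, held 157, 116 and 112 CPM in Con, 185, 238 and 189 in Model and 38.3, 42.5 and 37.4 in FUCO-1. The 3 groups did not overlap (-1.71 with SE 0.13 and adjusted p = 1.88e-09 against Con, -2.37, adjusted p = 9.27e-12 against Model). NR4A1, an orphan nuclear receptor, measured 36.5, 30.8 and 30.6 CPM in Con, 69.7, 66.4 and 65.4 in Model and 16.1, 16.3 and 16.2 in FUCO-1, and it shares exons with the antisense gene NR4A1AS. Its log2 fold change was -1.01 with SE 0.17 and adjusted p = 0.000139 against Con and -2.05, adjusted p = 5.01e-09 against Model. PLK2, a polo-like kinase, was lower than Con, at -1.58 with SE 0.15 and adjusted p = 6.58e-08. RASD1, a RAS-like GTPase, and CITED2, a partner of the coactivator p300, were lower, at -1.05 with SE 0.22 and adjusted p = 0.00145 and -1.01 with SE 0.10 and adjusted p = 1.15e-07. Without Con replicate 1 EGR2, KLF2, ATF3 and PLK2 stayed in this class (log2 fold changes of -1.93, -1.68, -1.53 and -1.74). RASD1, CITED2 and NR4A1 then had -0.61, -0.998 and -0.92, with adjusted p still under 0.05.

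EGR2 is shown with the promoter window that holds a CArG box, the site of serum response factor. RefSeq lists 3 starts for this gene and 1 window holds the box; the letters in capitals mark it. The window is chr10:62816367-62816616, minus strand (GRCh38.p14). A CArG box is in 1.16% of 35116 windows, and in 0 windows of the other 6 genes of this class. Absence says only that these letters are not in the 250 bases searched.
EGR2: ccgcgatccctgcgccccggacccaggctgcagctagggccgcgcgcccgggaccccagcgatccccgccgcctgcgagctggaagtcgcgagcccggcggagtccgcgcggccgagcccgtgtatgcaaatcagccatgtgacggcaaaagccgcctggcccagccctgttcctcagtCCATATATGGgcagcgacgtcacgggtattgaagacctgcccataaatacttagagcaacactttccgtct

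**Figure D3:**
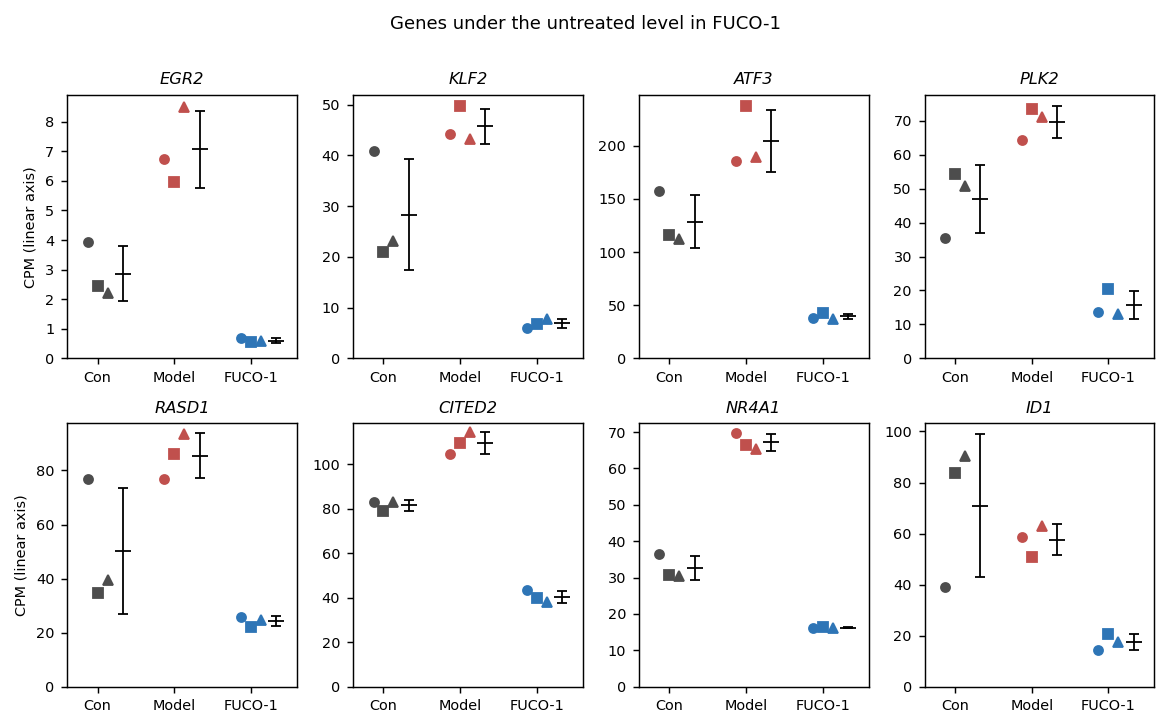
CPM (linear axis from 0) of EGR2, KLF2, ATF3, PLK2, RASD1, CITED2, NR4A1 and ID1 by library; circles, squares and triangles are replicates 1, 2 and 3 and bars give the mean ± SD (n = 3). FUCO-1 lies under every Con and Model library in all 8 panels, which follows largely from how these genes were picked. Con replicate 1 is near Model in KLF2 and RASD1.

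Of 23 tested immediate early transcription factors 18 were lower than Con and none higher, 7 of them DEGs, with a median of -0.69. In Model 14 were higher and none lower (median 0.51), and 19 were lower in FUCO-1 than Model (median -1.13). HES1, a repressor downstream of Notch, read 205, 225 and 236 CPM in Con, 263, 259.6 and 266 in Model and 68.1, 67.4 and 65.2 in FUCO-1 and had not been called with FFA alone (0.24, adjusted p = 0.2); FUCO-1 lay far under both groups (-1.73 with SE 0.13 and adjusted p = 1.88e-09). JUN and KLF6 were lower than Con, at -0.65 and -0.93 on the log2 scale. FOSL1, FOSL2, IER5, MYC and SRF did not pass. Of 14 MAPK feedback genes 10 were lower than Con and none higher (median -0.54), and 10 were lower than Model. DUSP5, a nuclear ERK phosphatase, measured 13.2, 18.8 and 17.6 CPM in Con, 9.98, 12.5 and 12.5 in Model and 3.47, 6.83 and 4.11 in FUCO-1, with no overlap of FUCO-1 with either group (-1.79 with SE 0.18 and adjusted p = 1.21e-07). DUSP4, another nuclear MAP kinase phosphatase, was lower, at -1.59 with SE 0.18 and adjusted p = 4.95e-07. DUSP1 and TRIB1, a MAP kinase phosphatase and a pseudokinase, were lower than Con, at -0.76 and -0.78 and lower than Model, at -1.70 and -1.29, after increases with FFA alone of 0.94 and 0.51.

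Of 16 tested BMP signalling and ID genes 9 were lower than Con and none higher, 4 of them DEGs, and 7 were lower than Model. Without Con replicate 3, 5 were lower than Con. ID1 measured 39, 83.8 and 90.2 CPM in the Con libraries, 58.8, 51 and 63.1 in the Model libraries and 14.4, 20.6 and 17.4 in the FUCO-1 libraries. All FUCO-1 libraries were under all others, and Con replicate 1 was under the Model libraries (-2.03 with SE 0.25 and adjusted p = 2.59e-06 against Con, -1.73, adjusted p = 8.73e-05 against Model). ID4 read 7.92, 13.6 and 14.2 CPM in Con, 7.73, 7.90 and 8.83 in Model and 2.43, 2.90 and 2.06 in FUCO-1, with no overlap (-2.27 with SE 0.21 and adjusted p = 4.44e-08). ID3, at under 6 CPM, was lower, at -1.63 with SE 0.34 and adjusted p = 0.00132. BMP2, a ligand of the pathway, held 56.1, 56.9 and 53.8 CPM in Con, 48.1, 68.1 and 50.9 in Model and 20.7, 29.3 and 26.4 in FUCO-1. Its FUCO-1 libraries lay under both groups (-1.13 with SE 0.15 and adjusted p = 4.96e-06; Model against Con 0.00, adjusted p = 0.991). FST, follistatin, which binds activins, held 17.5, 24.6 and 26 CPM in Con, 10.7, 11.8 and 12 in Model and 6.14, 6.17 and 5.03 in FUCO-1 and was lower than both groups (-1.97 with SE 0.16 and adjusted p = 4.92e-09 against Con, -0.99, adjusted p = 0.000649 against Model). Of 14 TGFB signalling genes 1 was higher and 5 lower than Con, among them FST, SMAD2 (-0.51) and TGFBR1 (-0.34).

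Of 12 tested arrestin domain and glucose response genes 5 were lower and 1 higher, with 4 DEGs lower. TSC22D3, a glucocorticoid-induced leucine zipper protein, read 26.3, 21.3 and 20 CPM in Con, 23.1, 26.9 and 22.1 in Model and 9.71, 9.07 and 9.77 in FUCO-1 and was lower than Con (-1.24 with SE 0.12 and adjusted p = 8.83e-08) and Model (-1.34, adjusted p = 4.42e-08). ARRDC3, an arrestin domain protein, was lower than Con, at -1.20 with SE 0.18 and adjusted p = 3.19e-05. TXNIP, a thioredoxin-binding arrestin, held 7.28, 28.2 and 24 CPM in Con, 21.2, 17.3 and 24.7 in Model and 9.36, 7.92 and 10.4 in FUCO-1. Con replicate 1 lay at the level of FUCO-1, so those groups overlapped. Its log2 fold change was -1.10 with SE 0.30 and adjusted p = 0.0123, and -1.496 without Con replicate 1, and the call was lost in 3 of 16 alternatives. IGFBP1, a liver IGF binding protein, was lower than Con (-1.47 with SE 0.23 and adjusted p = 6.44e-05). Of 16 hypoxia and glycolysis genes 2 were higher and 6 lower; ADM, adrenomedullin, was below both groups (-1.02 with SE 0.13 and adjusted p = 3.21e-06 against Con, -0.95 without Con replicate 1, -1.11, adjusted p = 1.96e-06 against Model), and PFKFB4 and HK2 were lower than Con with and without FUCO (FUCO-1 log2 fold changes -1.02 and -0.65). ALDOA was called (-0.49 with SE 0.17 and adjusted p = 0.0418) but lost in 8 of 16 alternatives, with adjusted p = 0.0839 without Con replicate 1.

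PPP1R15A, DNAJB9, NR0B2, BHLHE40, DEPP1, PGF, GADD45G, EID3, SULF2 and THBS4 lay below both groups and belonged to no list. PPP1R15A, the stress-induced subunit of an eIF2 alpha phosphatase, measured 161, 164 and 168 CPM in Con, 187, 189 and 182 in Model and 69.6, 82.6 and 72.2 in FUCO-1, with no overlap (-1.13 with SE 0.07 and adjusted p = 2.06e-10 against Con, -1.32, adjusted p = 9.4e-12 against Model). DNAJB9, a chaperone of the endoplasmic reticulum, had -1.12 with SE 0.10 and adjusted p = 1.17e-08. NR0B2, a repressive nuclear receptor of bile acid control, read 126, 139 and 138 CPM in Con, 94.7, 93.3 and 97.2 in Model and 61.7, 61.9 and 73.1 in FUCO-1 (-1.03 with SE 0.10 and adjusted p = 5.26e-08). BHLHE40, a transcriptional repressor, was lower, at -1.07, DEPP1 at -1.21, PGF, a placental growth factor, at -1.21, and GADD45G, a stress sensor, at -1.42 on the log2 scale. RARB, a retinoic acid receptor, was lower, at -1.43 with SE 0.27 and adjusted p = 0.000532, 1 of 2 lower and 2 higher among 13 retinoic acid genes, where DHRS3 was the other lower member (-0.42) and RARRES1 and TGM2 were higher (0.50 and 0.44); these last genes are not among the 41. The calls of DHRS3 and RARRES1 were each lost in 1 of 16 alternatives. EID3, which lies within TXNRD1, held 1.39, 1.25 and 1.68 CPM in Con, 1.43, 2.17 and 1.08 in Model and 0.198, 0.273 and 0.228 in FUCO-1 and was the largest fall of this class above 1 CPM (-2.60 with SE 0.40 and adjusted p = 4.66e-05). SULF2, a sulfatase chosen after its values were seen, had 13, 19 and 12 counts in Con and 1 in each FUCO-1 library. Against a floor of 3 counts per library this was at least 5.24-fold lower. SULF2 shares exons with NCOA3, so its few reads may belong to that gene. THBS4, a thrombospondin, remained from FFA and was lower again with FUCO (-1.33 in Model against Con, -1.68 with SE 0.08 and adjusted p = 6.41e-13 in FUCO-1 against Con, -0.35, adjusted p = 0.0133 in FUCO-1 against Model).

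The 8 genes above both Con and Model were MT2A, HSPA6, MT1X, AHRR, MIR3142HG, LRP4, MIR194-2HG and CNTNAP1. The contrasts with both groups define this class too, so its lack of overlap is no further result. Of 11 genes in the metallothionein list 5 were tested, among them MTF1 and SLC30A1, which are not metallothioneins. Of these 5, 4 were higher than Con, and 3 were higher than Model. MT1X and MT1E had no counts in Con, so they passed the filter through other groups. The counts of this list are therefore no further result. MT2A, a metallothionein that binds zinc and copper, had raw counts of 1, 0 and 1 in Con, 13, 21 and 10 in Model and 80, 128 and 56 in FUCO-1. The groups did not overlap. FUCO-1 was at least 27.5-fold higher than Con, against the floor of 3 counts per library, and the log2 fold change against Model was 2.54, adjusted p = 0.000255. Its mean was 2.39 CPM at 0.5 µM FUCO, 4.72 at 1 µM and 31.0 at 2 µM. Means at the other doses are given for MT2A only and do not describe the other genes. MT1X had counts of 0, 0 and 0 in Con, 0, 0 and 2 in Model and 9, 13 and 5 in FUCO-1, at least 2.80-fold higher than Con. MT1E held 0, 0 and 0 in Con, 1, 3 and 1 in Model and 3, 20 and 8 in FUCO-1, and 1 FUCO-1 library overlapped Model. SLC30A1, the zinc exporter controlled by MTF1, measured 12.9, 19.6 and 18.1 CPM in Con, 16.3, 18.6 and 16.4 in Model and 30.9, 30.3 and 22.7 in FUCO-1. It was higher than Con (0.73 with SE 0.15 and adjusted p = 0.0012) and Model (0.71, adjusted p = 0.00588), and FFA alone gave no call (0.02, adjusted p = 0.955). Metallothionein genes are near-identical copies, so their single counts are uncertain.

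HSPA6, a strictly stress-induced HSP70, had counts of 1, 0 and 2 in Con, 13, 10 and 11 in Model and 36, 30 and 38 in FUCO-1, at least 10.9-fold higher than Con and higher than Model (1.57, adjusted p = 0.00246). It resembles other HSP70 genes. Of 14 heat shock genes 2 were higher and 1 lower than Con, and HSPA4L was the other higher member (0.63 with SE 0.13 and adjusted p = 0.000981). HSPB1, the lower one (-0.32 with SE 0.11 and adjusted p = 0.0466), lost its call in 9 of 16 alternatives, with adjusted p = 0.206 without Con replicate 1. AHRR, the repressor of the aryl hydrocarbon receptor, had counts of 11, 5 and 5 in Con, 15, 8 and 16 in Model and 45, 20 and 34 in FUCO-1 (2.12 with SE 0.39 and adjusted p = 0.000384 against Con, 1.30, adjusted p = 0.0328 against Model). CYP1A1, a target of that receptor, read 10.7, 3.34 and 3.46 CPM in Con, 11.9, 11.6 and 9.37 in Model and 20.8, 15.6 and 15.4 in FUCO-1 and was higher than Con (1.57 with SE 0.29 and adjusted p = 0.000397), but not called against Model (0.66, adjusted p = 0.197). Without Con replicate 1 the log2 fold change against Model was still 0.66, with adjusted p = 0.0423. That comparison holds no Con library, so only the fit shared by all groups changed, not the difference. Of 14 xenobiotic genes 2 were higher (AHRR and CYP1A1) and 3 lower (CYP3A7, ALAS1 and TIPARP); 5 were higher without Con replicate 1, and the call of TIPARP was lost in 5 of 16 alternatives. LRP4, a low density lipoprotein receptor relative, and CNTNAP1, a contactin-associated protein, were higher than Con by 1.33 with SE 0.15 and adjusted p = 5.23e-07 and 1.06 with SE 0.09 and adjusted p = 7.31e-09. CNTNAP1 fell under the fold threshold without Con replicate 1 (0.98).

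Of 19 NRF2 targets 13 were higher than Con and none lower (median 0.51), beside 5 higher in Model; HMOX1 and OSGIN1 were higher than Model. Without Con replicate 2, or without Con replicate 3, 7 were higher than Con. HMOX1, haem oxygenase 1, measured 24.4, 17.6 and 18.7 CPM in Con, 25.7, 22.9 and 22.5 in Model and 35.1, 37 and 34.5 in FUCO-1. All FUCO-1 libraries lay above both groups (0.81 with SE 0.14 and adjusted p = 0.000235 against Con, 0.58, adjusted p = 0.0186 against Model). AKR1C1, an aldo-keto reductase, was higher by 1.29 with SE 0.21 and adjusted p = 8.05e-05, with Con replicate 1 at 37.3 CPM beside 15.3 and 15.2. NQO1, a quinone reductase, and TXNRD1, thioredoxin reductase, were higher by 0.96 and 0.61. NQO1 passed the fold threshold when Con replicate 1 was left out (1.09).

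MT2A, MT1X and HSPA6 are shown with the 250 bases before their RefSeq starts (GRCh38.p14), because metal and heat shock elements are known in these families. Capitals mark TGCACNC or TGCGCNC, the core of metal response elements, in MT2A (chr16:56608334-56608583, plus strand; 7 matches) and MT1X (chr16:56682220-56682469, plus strand; 4 matches). They mark GAANNTTC, the core of heat shock elements, in HSPA6 (chr1:161524290-161524539, plus strand; 2 matches). Both strands were searched. SLC30A1 was searched too, and its window, not shown, held 1 match of the metal motifs. At least 4 of the metal motifs are in 0.37% of 35116 windows and at least 1 in 24.8%; at least 2 of the heat shock motif are in 0.29% and at least 1 in 5.78%.
MT2A: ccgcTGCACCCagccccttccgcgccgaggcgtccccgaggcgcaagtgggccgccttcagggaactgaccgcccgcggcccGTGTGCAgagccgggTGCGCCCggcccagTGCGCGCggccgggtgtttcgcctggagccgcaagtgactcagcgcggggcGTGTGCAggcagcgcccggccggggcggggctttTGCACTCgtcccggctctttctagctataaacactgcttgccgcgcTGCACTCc
MT1X: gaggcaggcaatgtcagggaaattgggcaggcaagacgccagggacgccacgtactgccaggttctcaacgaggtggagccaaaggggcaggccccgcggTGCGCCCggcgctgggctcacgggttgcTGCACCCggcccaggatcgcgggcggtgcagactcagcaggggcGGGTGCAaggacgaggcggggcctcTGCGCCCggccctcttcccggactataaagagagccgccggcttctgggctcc
HSPA6: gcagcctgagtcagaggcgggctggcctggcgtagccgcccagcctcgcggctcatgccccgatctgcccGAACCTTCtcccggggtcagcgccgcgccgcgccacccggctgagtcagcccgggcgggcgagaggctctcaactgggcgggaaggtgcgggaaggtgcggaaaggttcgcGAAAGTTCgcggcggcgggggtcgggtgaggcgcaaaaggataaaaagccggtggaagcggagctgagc

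**Figure D4:**
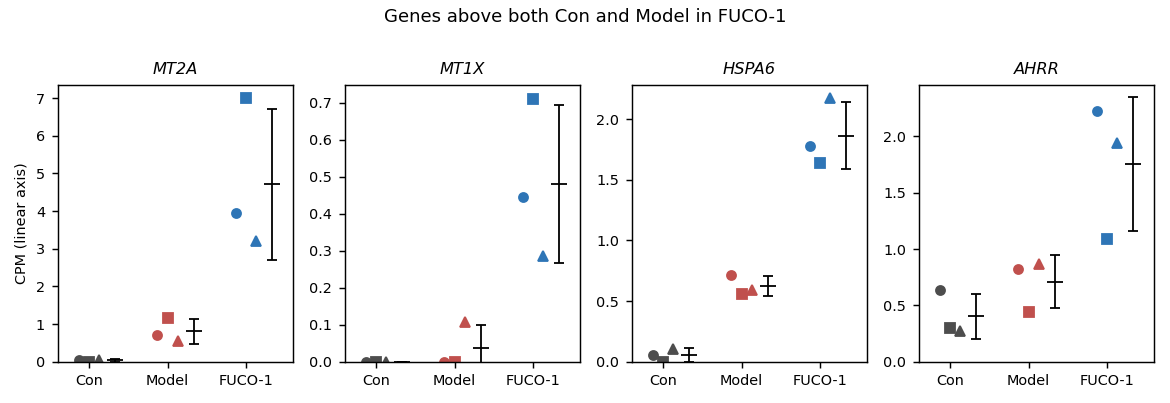
CPM (linear axis from 0) of MT2A, MT1X, HSPA6 and AHRR by library; circles, squares and triangles are replicates 1, 2 and 3 and bars give the mean ± SD (n = 3). FUCO-1 lies above every Con and Model library in each panel, which follows largely from how these genes were picked. MT1X stays under 1 CPM.

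**Figure D5:**
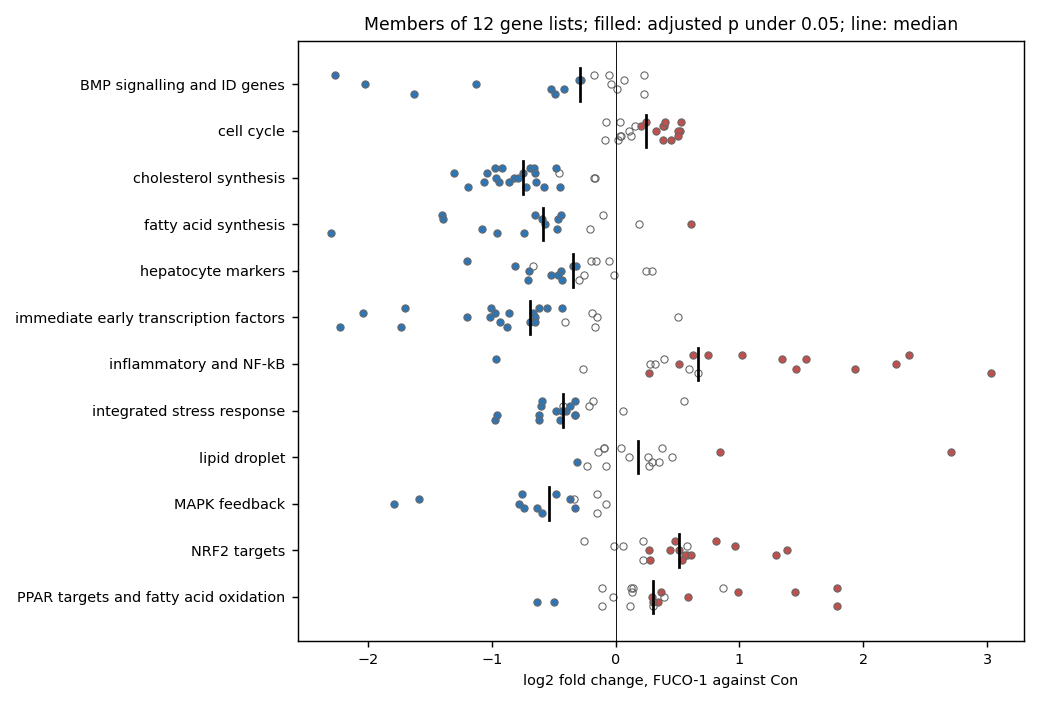
Log2 fold change in FUCO-1 against Con of the tested members of 12 gene lists; filled points have adjusted p under 0.05, open points do not, and vertical lines are list medians. Among these 12 lists, which leave out the metallothionein list and others, cholesterol synthesis (median -0.75) and immediate early genes (-0.69) lie furthest to the left and inflammatory genes (0.66) furthest to the right.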

How the data were processed

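RNA-seq libraries of Hep3B cells were grouped by their titles. The deposited values are whole-number counts for each gene that the authors obtained with featureCounts after fastp trimming and STAR alignment (GRCh38.p14), with no normalization; whether counting used the strand, and how reads with several matches were treated, was not given in the sources used here. The count table holds 36684 symbols. Counts were fitted with edgeR 4.0.16 (R 4.3.3; TMM, filterByExpr, quasi-likelihood test, 1 term per group over 18 libraries) with a DEG at adjusted p under 0.05 and absolute log2 fold change over 1, and DESeq2 1.42.0 was an alternative. The fit was tested on simulated data. Members, lists and motifs were chosen with earlier results of these data known; no list was tested as a set. Named genes were the 8 largest rises and falls of at least 1 CPM without overlap, the leading genes of each class, up to 4 called members per list and genes the study named; genes chosen after their values were seen are HSPA6, AHRR, MT1X, MT1E and SULF2, and the genes below both groups that no list holds. In 18 genes, 8 motifs were sought, and only some of those with matches are shown. Of the tested genes 11524 are in the RefSeq promoter table. Positions are from RefSeq and exon overlaps from GENCODE v44. Overlaps with tested genes were sought without regard to strand. Named genes with overlaps not given above are CCN2 (LINC01013), CNTNAP1 (CCR10), DEPP1 (RASSF4), MTHFD2 (SLC4A5), RARRES1 (MFSD1), SREBF1 (RAI1), TF (SRPRB) and TGM2 (RPRD1B). ARRDC3, STARD4, THBS4 and VLDLR overlap their antisense genes, and TMEM9B-AS1 also overlaps NRIP3. Floors cover counting error only, since reads carry no molecular identifiers. Alternatives were other normalization, filters, thresholds, a replicate block and leaving out libraries. A few genes that the rule names are not reported here.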

Additional observations from a re-analysis of the deposited data

How the results depend on the processing

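Counts moved by over 1.5 times under some settings. With at least 10 counts in every library there were 180 DEGs in FUCO-1 against Con and 146 in Model against Con, 88 fatty acid DEGs remained, 102 genes were below the untreated level and 5 above both groups. With no fold change threshold the counts were 2661, 2555 and 467 for FUCO-1 against Con, Model against Con and FUCO-1 against Model, with 1477 remaining, 188 called back, 1465 below, 179 below both and 56 above both. With glmTreat they were 44, 24 and 16, with 19, 2, 25, 12 and 4. With no filter 31 were called back and 15 lay above both. These settings change the filter or the threshold itself, and the cause of the moves was not tested. Leaving out 1 library gave 280 to 459, 216 to 396 and 57 to 81 DEGs, 123 to 243 remaining, 12 to 35 called back, 137 to 235 below, 35 to 56 below both and 3 to 14 above both; the highest number called back and above both came without Con replicate 1, the lowest called back without Model replicate 3, and 3 above both without Model replicate 2. Without Model replicate 1, Model replicate 3 or FUCO-1 replicate 2, 5 were above both. In the labels samples share only a replicate number. Same-numbered deviations did not correlate throughout, which cannot settle whether samples were paired. The replicate block gave 333, 285 and 77 DEGs, with 163 remaining, 21 called back, 168 below, 47 below both and 8 above both. Among named genes, 4 log2 fold changes of FUCO-1 against Con changed sign when 1 library was left out: KRT17 ran from -0.72 to 0.019, EPCAM from -0.051 to 0.084, PPARA from -0.065 to 0.040 and CD36 from -0.065 to 1.23; none was called in the reported fit, and the cause was not tested. In all, 55 values of 144 genes over 16 settings lost their call, 10 gained one and 2207, genes without a call included, stayed on the same side of the adjusted p threshold with the same direction. Genes near the fold threshold (among them ACLY, ACSL3, BHLHE40, BMP2, INSIG1, NR0B2, PDK4, PFKFB4, SC5D and SESN2) crossed it when 1 library was left out, with adjusted p under 0.05 in each case. Counts of list members under these settings were added after the data were seen: 20 to 22 cholesterol synthesis, 16 to 18 immediate early, 9 to 12 MAPK feedback and 5 to 10 BMP and ID genes were lower than Con, and 8 to 16 inflammatory, 7 to 15 NRF2 and 1 to 4 metallothionein genes higher; without Con replicate 1 these were 20, 18, 12, 10, 15, 15 and 4.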
